A study of Homo sapiens with 6 samples.

Results

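The genes of serine synthesis, folate one-carbon metabolism and their amino acid carriers were examined in A673/TR/shEF cells upon EWSR1::FLI1 knockdown. The set holds 10 genes picked by symbol, of 26364 gene symbols in the deposited table, and all 10 were found. A673 is an Ewing sarcoma cell line with the EWSR1::FLI1 fusion, and its derivative A673/TR/shEF holds a tetracycline repressor and an shRNA to the fusion mRNA that doxycycline switches on. RNAseq was available for 3 libraries without doxycycline (EWSR1::FLI1 high) and 3 given 1 µg/mL of the drug for 72 h (EWSR1::FLI1 low), all of the same engineered genotype. Only the EWSR1::FLI1 low cells received doxycycline, so the effects of drug and knockdown cannot be told apart here. The series text speaks of clones and the titles of experiments, so p-values measure the spread between these libraries, whichever they are. In bulk RNA, a change in the number of dividing cells and a change in RNA per cell cannot be told apart either.

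Serine is made from the glycolytic intermediate 3-phosphoglycerate by the enzymes PHGDH, PSAT1 and PSPH in turn. SHMT enzymes then move a carbon unit from serine to folate, and MTHFD enzymes interconvert the folate-bound units and release formate. Cytosol and mitochondria hold parallel sets of these folate enzymes. The carbon units feed purine, thymidylate and methionine synthesis, and the pathway is known for its high activity in dividing cancer cells. SLC1A4 and SLC1A5 carry neutral amino acids, serine among them, across the plasma membrane. Several of these genes are textbook targets of ATF4, the transcription factor of the amino acid response.

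Promoter stretches of 4 of the genes are shown because they hold a motif of a factor linked to this pathway. The RefSeq promoter table (GRCh38.p14, 250 bases before to 50 after each annotated start) matched 8 of the 10 genes, with 14 start sites. Motifs were searched on both strands: TGATGNAA, the core of the element that ATF4 binds with C/EBP factors, CACGTG, the E-box bound by MYC and its relatives, and GGAAGGAA, a short form of the GGAA repeat bound by EWSR1::FLI1. TGATGNAA was found at a start of MTHFD1L, SLC1A4 and SLC1A5, and in 3.62% of the 35116 promoters of the table (4.46% of its 27305 genes). The genes with CACGTG included MTHFD1 and MTHFD1L, and 7.26% of all promoters (8.77% of genes) held it. GGAAGGAA was found for none of the 8 genes and in 3.67% of all promoters (4.50% of genes). A match describes letters only, and binding was not measured. Each stretch is written 5′ to 3′ on the strand of its gene, with the motif in capitals.
MTHFD1, plus strand, chr14:64388327-64388356, CACGTG: cagtccctaagCACGTGggttgggttgtcc
MTHFD1L, plus strand, chr6:150866321-150866350, CACGTG: acgcccggctcCACGTGcgcagccggccgc
MTHFD1L, plus strand, chr6:150866346-150866375, TGATGNAA: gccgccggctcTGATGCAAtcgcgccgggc
SLC1A4, plus strand, chr2:64989381-64989410, TGATGNAA on the opposite strand: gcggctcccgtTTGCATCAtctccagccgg
SLC1A5, minus strand, chr19:46784893-46784922, TGATGNAA: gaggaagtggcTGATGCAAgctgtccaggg

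Levels are given as FPKM, fragments scaled for gene length and depth, so they can be compared between genes. Where 3 values of a condition are listed, they are those of replicates 1, 2 and 3 in that order. Depth was 6980361 to 16658933 reads on genes per library, and each of the 10 genes had 130 to 4156 reads in each library, far above the 3 reads taken as the floor of detection. limma was applied to log2(FPKM + 1) for the 15504 genes averaging 0.5 FPKM or more, and all 10 passed this filter. A gene was called at an adjusted p under 0.01, with Benjamini-Hochberg adjustment over all genes tested. The study's list of strongly regulated genes used that adjusted p from another test, together with a fold change limit. Log2 fold changes are low minus high on the log2(FPKM + 1) scale and understate changes of weakly expressed genes. FLI1, the 3′ part of the fusion mRNA, was at 11.3, 12.7 and 14.2 FPKM in high cells and fell to 2.91, 4.29 and 3.68 in low cells (adjusted p = 0.000676, limma). The Ewing sarcoma markers CD99, NKX2-2, NR0B1, STEAP1 and CCND1 were detected in all 6 libraries, each with at least 22 reads. Their levels were not stable. STEAP1 was at 148 to 155 FPKM in high and 20.1 to 42.6 in low cells, and CCND1 at 375 to 394 and 70.8 to 141. NR0B1 was at 22.2 to 33.8 and 1.84 to 6.84, NKX2-2 at 3.92 to 5.77 and 1.29 to 1.57, and CD99 at 118 to 144 and 84.2 to 105. Low replicate 1 stood apart from the other libraries. Its FPKM values summed to 255956 against 334614 to 366060 in the others, and 13.8% of the genes tested were under 1 FPKM in it against 19.0% to 22.1%. Values of the 10 genes and of the gene lists that move with this library are also given without it.

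None of the 10 genes was called lower or higher upon knockdown (limma), while 3.37% of all genes tested were called lower. At an adjusted p under 0.05, PHGDH and MTHFD1 were lower, 2 of the 10, against 9.91% of all genes. At an unadjusted p under 0.05, PHGDH, MTHFD1, SHMT1 and PSAT1 were lower, 4 of the 10, against 18.7% of all genes. A p that misses a limit does not show that levels were alike. limma-voom on recovered reads gave the same counts of 0, 2 and 4 genes. For PHGDH, SHMT1 and MTHFD1, 3 of the 10, every low library was below every high library, and 23.6% of all genes tested did so. All 10 genes had a log2 fold change below 0, against 54.8% of all genes tested, with a median of -0.52 against -0.05. Without low replicate 1, it was below 0 for 7 of the 10, with a median of -0.18 against -0.03. It was below 0 for 8 of the 10 with median-ratio scaling or equal FPKM totals, for 7 with quantile normalization and for 5 with sample quality weights.

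In high cells the mean level was greatest for MTHFD2 at 139 FPKM, followed by PHGDH at 108 and MTHFD1 at 87.9 FPKM, and the libraries of these 3 genes did not overlap. SLC1A5, SHMT2, PSAT1 and PSPH followed with means between 44.7 and 50.8 FPKM and overlapping values. MTHFD1L was at 22.8 FPKM, apart from its neighbours. SLC1A4 and SHMT1, at 15.0 and 14.5 FPKM, overlapped. MTHFD2 and PHGDH ranked 397 and 605 from the top among the genes tested, and the level of SHMT1 was at or above 66.6% of them.

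**Figure D1:**
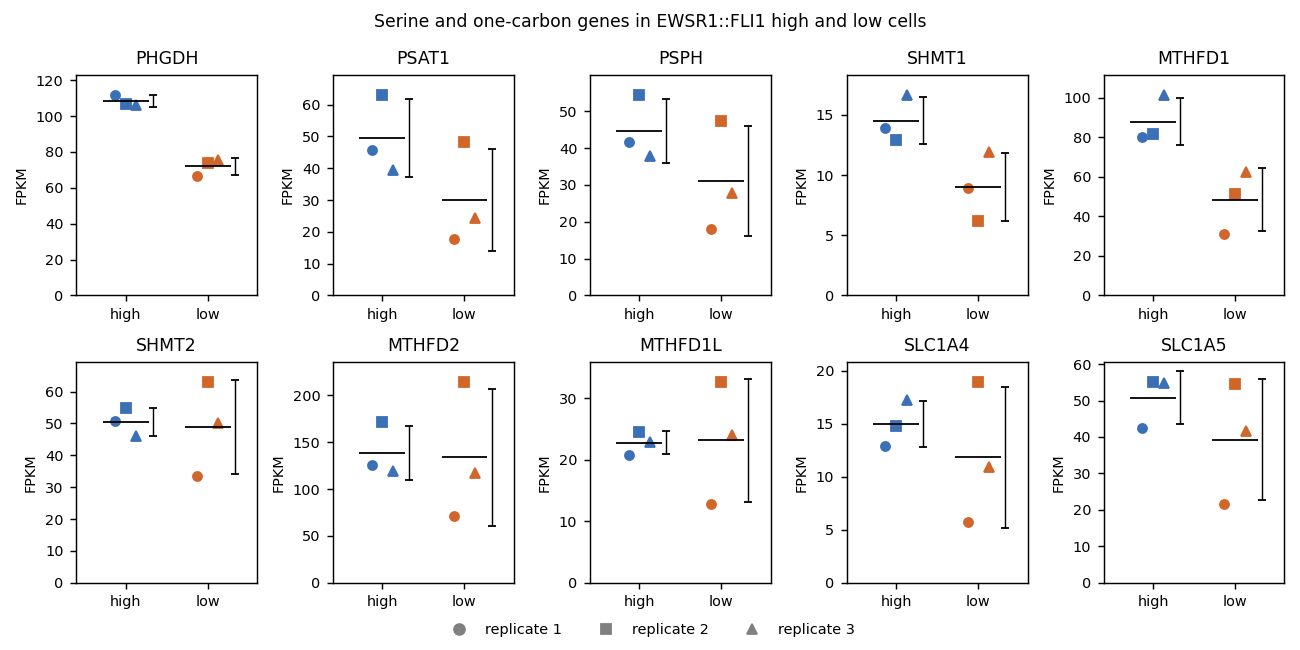
FPKM of the 10 genes in each library of EWSR1::FLI1 high and low cells, with the y axis starting at 0. Symbols mark replicate numbers, horizontal lines the means and vertical bars ± SD (n = 3). The groups are apart for PHGDH, SHMT1 and MTHFD1, and for the other genes low replicate 2 lies within or above the range of the high libraries.

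PHGDH (ENSG00000092621, chromosome 1, 120191034 to 120286841, plus strand, GRCh37) catalyses the first step of serine synthesis. High cells held 112, 107 and 106 FPKM of it, low cells 66.4, 73.9 and 75.6. All low libraries were below the high ones, and PHGDH varied least of the set between replicates, with a largest to smallest ratio of 1.05 in high and 1.14 in low cells. Its mean was 108 ± 3.19 FPKM in high and 72.0 ± 4.88 FPKM in low cells (SD, n = 3 each), so that low cells held 66.5% of the high level. With a log2 fold change of -0.58 ± 0.16 (SE), its adjusted p of 0.0353 (limma) missed the limit. Leaving out any 1 library kept the fold change between -0.62 and -0.53, with limma adjusted p from 0.0104 to 0.166.

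PSAT1 (ENSG00000135069, chromosome 9, 80912041 to 80945009, plus strand, GRCh37) is the transaminase of the next step. Its level was 45.7, 63.1 and 39.4 FPKM in high and 17.7, 48.2 and 24.2 in low cells. Replicate 2 was the highest library of each condition, and in low cells it overlapped the high group. limma gave a log2 fold change of -0.79 ± 0.35 (SE) with an adjusted p of 0.142. Without low replicate 2 it was -1.19 (limma adjusted p = 0.0227) and without low replicate 1 it was -0.49 (limma adjusted p = 0.271). Over all alternatives run, the adjusted p lay between 0.0227 and 0.40.

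PSPH (ENSG00000146733, chromosome 7, 56078744 to 56119297, minus strand, GRCh37), the phosphatase that releases serine, stood at 41.6, 54.5 and 37.9 FPKM in high and 18.1, 47.3 and 27.8 in low cells. As with PSAT1, replicate 2 was highest in both conditions and the groups overlapped. Its log2 fold change of -0.60 ± 0.32 (SE) had an adjusted p of 0.229 (limma), and was -0.28 without low replicate 1 and -0.95 without low replicate 2. PSPH has a pseudogene copy, so the origin of a share of its reads is uncertain.

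For both cytosolic folate enzymes every low library was below every high library, as for 23.6% of all genes tested. Neither was called. SHMT1 (ENSG00000176974, chromosome 17, 18231174 to 18266877, minus strand, GRCh37), the cytosolic serine hydroxymethyltransferase, was measured at 13.9, 12.9 and 16.7 FPKM in high and 8.94, 6.21 and 11.9 in low cells. Here low replicate 2 was the lowest library of all. Its log2 fold change of -0.66 ± 0.24 (SE) did not pass the limit (adjusted p = 0.0807, limma). Without low replicate 2 the SHMT1 value was -0.45 (limma adjusted p = 0.235), and without low replicate 1 it was -0.68 (limma adjusted p = 0.0854).

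MTHFD1 (ENSG00000100714, chromosome 14, 64854749 to 64930175, plus strand, GRCh37) encodes the trifunctional cytosolic folate enzyme, and the E-box shown lies at its start. Values were 80.4, 81.7 and 102 FPKM in high and 31.3, 51.6 and 62.6 in low cells. The low mean was 55.2% of the high mean. Its log2 fold change of -0.89 ± 0.26 (SE) had an adjusted p of 0.0429 (limma). Without low replicate 1 it was -0.61 (limma adjusted p = 0.0231). The limma adjusted p passed the limit with quantile normalization (0.00744), equal FPKM totals (0.00801) and sample quality weights (0.00312), and reached 0.168 over all alternatives.

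The mitochondrial folate enzymes overlapped between the groups. SHMT2 (ENSG00000182199, chromosome 12, 57623356 to 57628718, plus strand, GRCh37), the mitochondrial serine hydroxymethyltransferase, had 50.7, 54.8 and 45.9 FPKM in high and 33.6, 63.0 and 50.1 in low cells. Low replicate 2 was above every high library and low replicate 1 below every one. Its log2 fold change was -0.09, with a 95% interval from -0.63 to 0.46 (adjusted p = 0.844, limma).

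MTHFD2 (ENSG00000065911, chromosome 2, 74413299 to 74444692, plus strand, GRCh37), a mitochondrial dehydrogenase and cyclohydrolase known for its expression in tumors, reached 125, 172 and 119 FPKM in high and 71.1, 214 and 117 in low cells. Low replicate 2 held 3.01 times the level of low replicate 1, and these libraries lay on opposite sides of the high group. Its 95% interval for the log2 fold change of -0.17 ran from -0.99 to 0.64 (adjusted p = 0.779, limma).

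MTHFD1L (ENSG00000120254, chromosome 6, 151186815 to 151423023, plus strand, GRCh37) releases formate in mitochondria, and both an E-box and the TGATGNAA core lie at its starts, as shown. Levels of 20.9, 24.6 and 22.8 FPKM in high cells stood beside 12.8, 32.7 and 24.0 in low cells. Again low replicate 1 was below and low replicate 2 above every high library. The fitted log2 fold change of -0.07 (95% interval from -0.76 to 0.62, adjusted p = 0.907, limma) was below 0, while the ratio of mean FPKM, 1.02, was above 1. Without low replicate 1, SHMT2, MTHFD2 and MTHFD1L had log2 fold changes of 0.16, 0.21 and 0.29, and none passed the limit.

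Both carriers overlapped between the groups as well. SLC1A4 (ENSG00000115902, chromosome 2, 65215611 to 65250999, plus strand, GRCh37) was present at 12.9, 14.8 and 17.2 FPKM in high and 5.74, 18.9 and 10.9 in low cells. It had the widest spread of the set among the low libraries, a largest to smallest ratio of 3.30. A log2 fold change of -0.44 ± 0.35 (SE) was fitted (adjusted p = 0.415, limma), and -0.04 without low replicate 1.

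SLC1A5 (ENSG00000105281, chromosome 19, 47278140 to 47291851, minus strand, GRCh37), a main glutamine carrier of many cancer cells, lay at 42.5, 55.1 and 54.8 FPKM in high and 21.5, 54.5 and 41.7 in low cells. Low replicate 2 alone reached the range of the high group. For SLC1A5 limma fitted -0.45 ± 0.32 (SE) on the log2 scale (adjusted p = 0.353), and -0.08 without low replicate 1.

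**Figure D2:**
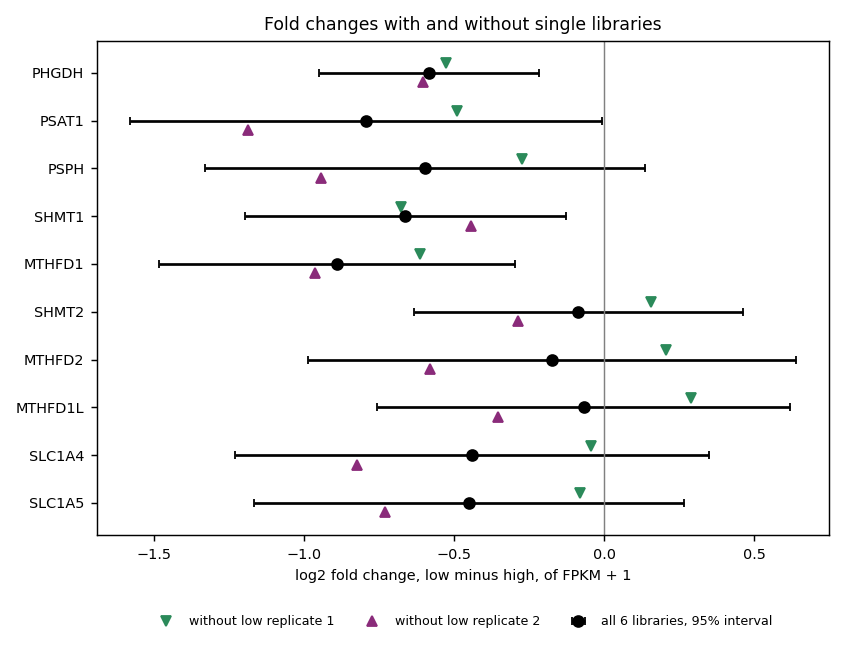
Fitted log2 fold change (EWSR1::FLI1 low minus high, FPKM + 1) of the 10 genes with its 95% interval, and the same without low replicate 1 or without low replicate 2. For SHMT2, MTHFD2 and MTHFD1L the value crosses 0 when low replicate 1 is left out, while PHGDH stays between -0.60 and -0.53.

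Related genes were also compared as ratios within a library, in which scaling between libraries cancels. SHMT2 to SHMT1 was 3.64, 4.24 and 2.75 in high and 3.76, 10.1 and 4.20 in low cells. MTHFD2 to MTHFD1 was 1.56, 2.10 and 1.17 in high and 2.27, 4.16 and 1.86 in low cells. Both ratios overlapped between the groups, and low replicate 2 held the highest value of each. Their log2 differences were 0.64 and 0.73 (exact permutation test, two-sided, p = 0.3 and p = 0.2). Without low replicate 2 these differences were 0.19 and 0.39.

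MTHFD1L to MTHFD1 was 0.259, 0.301 and 0.225 in high and 0.409, 0.634 and 0.383 in low cells, so that every low library was above every high library. The log2 difference was 0.83, which is 1.78-fold (exact permutation test, two-sided, p = 0.1, the smallest p that 3 against 3 allow, so 0.05 could not be reached). It stayed between 0.61 and 0.97 when any 1 library was left out. SLC1A5 to SLC1A4 lay between 3.19 and 3.73 in high and between 2.88 and 3.83 in low cells, a log2 difference of 0.03 (exact permutation test, two-sided, p = 0.8). Adjusted for the 4 ratios by Benjamini-Hochberg, the exact p-values were 0.4 for the first 3 and 0.8 for the carriers.

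**Figure D3:**
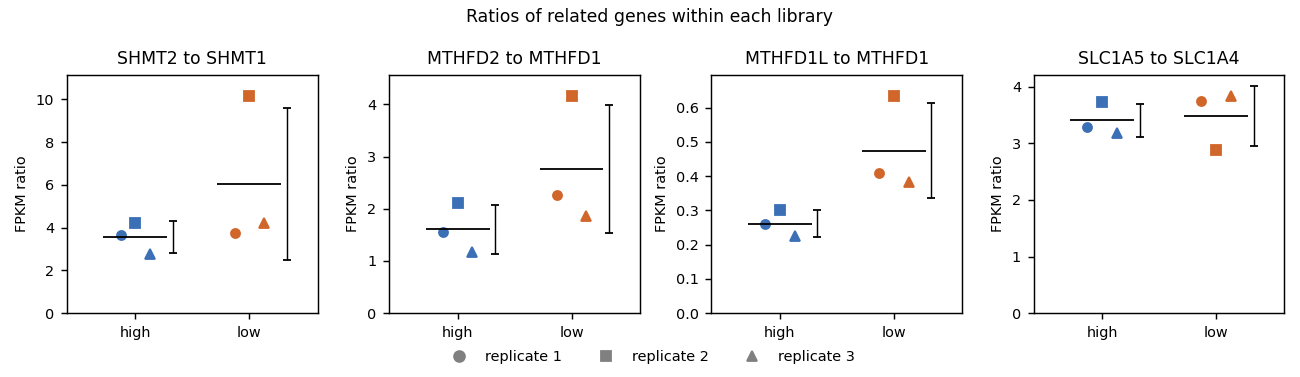
Ratios of FPKM within each library for 4 pairs of related genes, with the y axis starting at 0, horizontal lines at the means and vertical bars ± SD (n = 3). The MTHFD1L to MTHFD1 ratio is between 0.225 and 0.301 in the high libraries and between 0.383 and 0.634 in the low libraries.

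Other genes of the pathway were read from lists chosen by function, with earlier results of these data known. Of 28 further folate and glycine cleavage genes, 21 could be tested. Of these, 17 had a log2 fold change below 0, against 54.8% of all genes tested. In this list 1 was called lower and none higher, and 3.37% of all genes tested were called lower. The median was -0.12, and -0.27 without low replicate 2. The called gene, GCSH, a carrier protein of the mitochondrial glycine cleavage system, fell from 23.0, 24.7 and 25.5 FPKM in high to 10.0, 13.1 and 13.9 in low cells (log2 fold change -0.94, adjusted p = 0.00909, limma). Its limma adjusted p lay between 0.0104 and 0.0532 when any library other than low replicate 1 was left out. TYMS, which makes thymidylate, and MTR, which passes the carbon unit to methionine, were singled out after their values were seen. Their log2 fold changes were -1.19 and -0.76, with adjusted p-values (limma) of 0.0243 and 0.0148 that missed the limit. MTHFD2L, a mitochondrial relative of MTHFD2, was at 3.35, 4.15 and 5.31 FPKM in high and 3.05, 7.70 and 5.49 in low cells (adjusted p = 0.605, limma).

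Of the purine synthesis genes, whose pathway takes up formyl-folate, 12 of 13 could be tested. All 12 had a log2 fold change below 0, against 54.8% of all genes tested, with a median of -0.70 against -0.05. Of the 12, 1 was called lower, against 3.37% of all genes tested. Low replicate 1 was the lowest low library in all 12, against 57.0% of all genes tested. Without that library the median was -0.55, and ADSS, named after its values were seen, went from -0.05 to 0.40. PFAS, an enzyme of the pathway, fell from 10.2, 8.67 and 12.7 FPKM in high to 3.38, 4.08 and 5.52 in low cells (log2 fold change -1.12, adjusted p = 0.00757, limma). Its limma adjusted p lay between 0.0101 and 0.0408 when any library other than low replicate 3 was left out. In 9 of the 12 genes every low library was below every high library, against 23.6% of all genes tested. Of 10 methionine cycle and transsulfuration genes tested none was called (limma, 2 lower and 0 higher at an unadjusted p under 0.05), and the median was -0.36, or -0.12 without low replicate 1. Of 17 further amino acid carriers tested none was called (limma, 3 lower and 3 higher at an unadjusted p under 0.05). Their median was -0.08, which became 0.0038 without low replicate 1 and -0.31 without low replicate 2. Over all 15504 genes tested, 2900 were lower and 2415 higher at an unadjusted p under 0.05 (limma). Every low library was below every high library for 5 of the 10 methionine genes and 4 of the 17 carriers. It was above for 0 and 2 of them. These shares were 23.6% and 17.5% over all genes tested.

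Proliferation markers were lower in the same libraries. Of 14 tested, 5 were called lower and none higher, and 3.37% of all genes tested were called lower. In all 14 every low library was below every high library, against 23.6% of all genes tested. The median of the 14 markers was -1.20 on the log2 scale, or -1.01 without low replicate 1. The called genes were MCM2, MCM3 and MCM6, parts of the replicative helicase, with -1.44, -1.29 and -1.23, PCNA, the replication clamp, with -1.19, and MCM7, named after its value was seen, with -1.14. For each of the 5 the limma adjusted p exceeded 0.01 when any high library or low replicate 2 was left out, with at most 0.0523. The summed FPKM of the 14 markers lay between 1377 and 1596 in high and between 477 and 958 in low libraries. Its part in the values of PHGDH, SHMT1, MTHFD1 and the purine genes was not tested.

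Of 23 ATF4 and amino acid response genes, 22 could be tested, 6 had a log2 fold change below 0 and 16 above. The median was 0.45, but 0.78 without low replicate 1 and 0.12 without low replicate 2. At an unadjusted p under 0.05 (limma), 7 were higher and 2 lower, against 2415 higher and 2900 lower of all 15504 genes tested. In 5 every low library was above every high library and in 2 below, against 17.5% and 23.6% of all genes tested. NUPR1, a stress-induced nuclear protein, was the only called gene of the list and rose from 1.67, 2.48 and 2.12 FPKM in high to 40.2, 88.5 and 55.8 in low cells (log2 fold change 4.27, adjusted p = 5.56e-05, limma). ATF4 itself was at 184, 208 and 169 FPKM in high and 143, 218 and 143 in low cells (log2 fold change -0.18, adjusted p = 0.585, limma). That value became 0.05 with quantile normalization and 0.08 with sample quality weights. Of 20 cytosolic aminoacyl-tRNA synthetase genes none was called (limma, 7 lower and 0 higher at an unadjusted p under 0.05). At that p, 18.7% of all genes tested were lower. For 9 of the 20 every low library was below every high library and for 0 above, against 23.6% and 17.5% of all genes tested. The median of the 20 synthetase genes was -0.33, or -0.13 without low replicate 1. That library was the lowest low library for 19 of the 20, against 57.0% of all genes tested.

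Of 5 MYC family genes 4 could be tested and none was called (limma, 0 in either direction also at an unadjusted p under 0.05), with a median of -0.22, or -0.09 without low replicate 1. MYC was at 39.7, 38.6 and 54.1 FPKM in high and 23.6, 60.6 and 33.5 in low cells (adjusted p = 0.622, limma), and MYCN lay between 0.241 and 1.36 FPKM. Of 8 mitochondrial chaperones and proteases none was called (limma, 4 lower and 0 higher at an unadjusted p under 0.05). At that p, 18.7% of all genes tested were lower. For 5 of the 8 every low library was below every high library and for 0 above, against 23.6% and 17.5% of all genes tested. The median of the 8 was -0.63, or -0.35 without low replicate 1. That library was the lowest low library for all 8, against 57.0% of all genes tested.

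**Figure D4:**
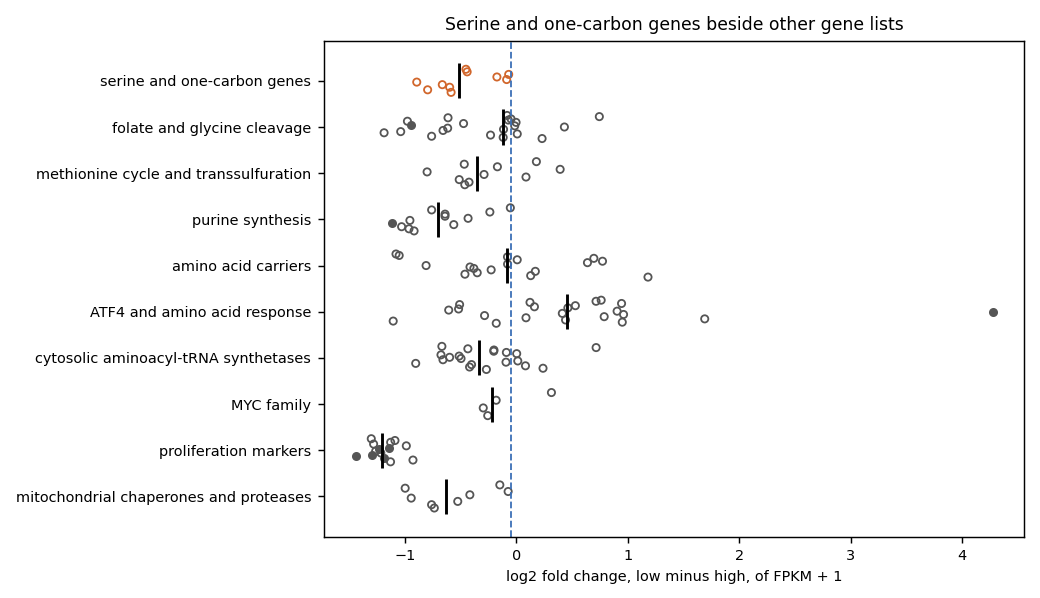
Log2 fold change (EWSR1::FLI1 low minus high, FPKM + 1) of each tested gene by list, with vertical bars at the list medians and a dashed line at the median of all 15504 genes. Filled points are called genes, 8 in all, none of them among the 10 serine and one-carbon genes.

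Several of the 10 genes shared the spread between the low libraries. From low replicate 1 to low replicate 2 the level differed 2.72-fold for PSAT1, 2.61-fold for PSPH, 3.01-fold for MTHFD2, 2.55-fold for MTHFD1L, 3.30-fold for SLC1A4 and 2.54-fold for SLC1A5, with low replicate 2 higher. The same ratio was 1.11 for PHGDH, 1.65 for MTHFD1, 1.87 for SHMT2 and 0.694 for SHMT1. With 1 added to each FPKM, its median was 2.45 for the 10 genes, 2.57 for the ATF4 and amino acid response list, 1.75 for the aminoacyl-tRNA synthetases, 1.25 for the proliferation markers and 1.11 for all genes tested. Low replicate 2 was the highest low library for 7 of the 10 genes and for 26.2% of all genes tested. It was so for 20 of the 22 ATF4 and amino acid response genes and 14 of the 20 aminoacyl-tRNA synthetases. The count was 11 of the 17 further carriers, 5 of the 8 mitochondrial chaperones and proteases and 2 of the 4 MYC family genes. It was 5 of 21 for folate and glycine cleavage and 3 of 10 for the methionine cycle and transsulfuration. For purine synthesis it was 2 of 12, and for the proliferation markers 0 of 14. Low replicate 1 was the lowest low library for 9 of the 10 genes, all 14 proliferation markers and 57.0% of all genes tested.

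Replicate 2 was also the highest of the high libraries for 6 of the 10 genes and for 20.9% of all genes. It was so for 17 of the 22 ATF4 and amino acid response genes and 12 of the 20 aminoacyl-tRNA synthetases. The count was 6 of the 17 further carriers, 1 of the 8 mitochondrial chaperones and proteases and 1 of the 4 MYC family genes. It was 1 of 21 for folate and glycine cleavage and 2 of 10 for the methionine cycle and transsulfuration. For purine synthesis it was 1 of 12, and for the proliferation markers 0 of 14. ASNS, asparagine synthetase, and CHAC1, a glutathione-degrading enzyme, are textbook ATF4 targets and were singled out after their values were seen. ASNS was at 45.1, 74.3 and 37.9 FPKM in high and 24.2, 83.8 and 34.1 in low cells. CHAC1 was at 2.99, 6.03 and 2.48 FPKM in high and 2.60, 23.8 and 4.65 in low cells. In both genes replicate 2 was the highest library of each condition, as it was for PSAT1, PSPH, SHMT2, MTHFD2, MTHFD1L and SLC1A5. The part of these replicates' other differences in the values was not tested.

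**Figure D5:**
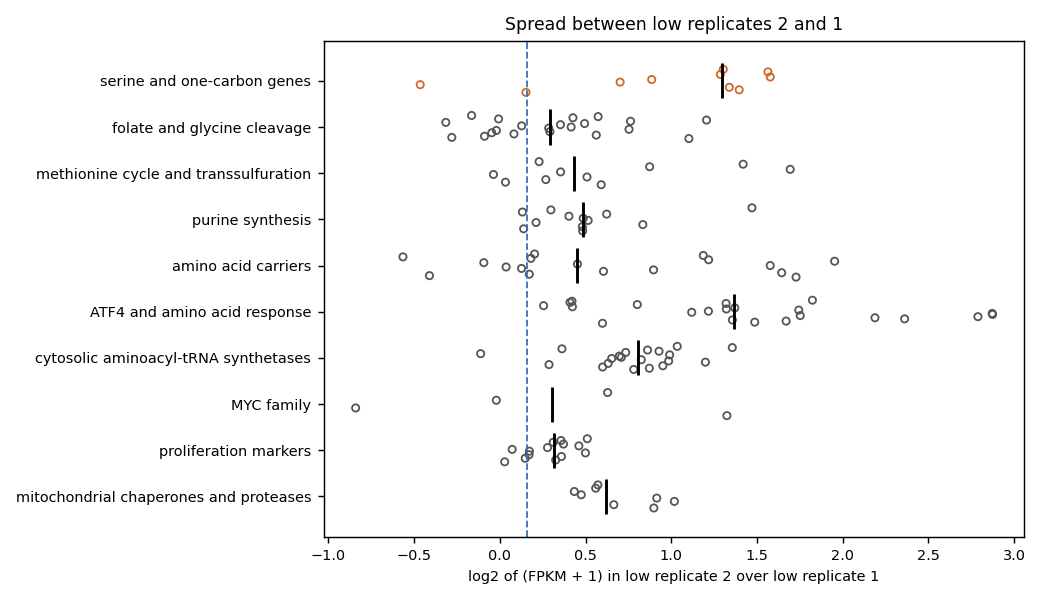
Log2 of the ratio of FPKM + 1 in EWSR1::FLI1 low replicate 2 over low replicate 1 for each tested gene by list, with vertical bars at the list medians and a dashed line at the median of all genes tested. The medians of the 10 serine and one-carbon genes and of the ATF4 and amino acid response list, 2.45 and 2.57 as ratios, lie to the right of the other lists.

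Across the 6 libraries, the genes outside the set whose log2(FPKM + 1) was most like that of PHGDH by Pearson correlation included IPO5, ZDHHC21, SUZ12 and AMN1, with r from 0.994 to 0.999. These libraries fall into the 2 conditions, so such an r mostly describes a difference between them. The choice by likeness to PHGDH favours genes that are lower in low cells, so this direction is a description. The 4 genes had log2 fold changes from -1.67 for ZDHHC21 to -0.94 for SUZ12 and limma adjusted p of at most 0.00584. When any high library was left out, that p lay between 0.0106 and 0.0442 for IPO5, SUZ12 and AMN1, and for SUZ12 it was 0.0197 without low replicate 2.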

How the data were processed

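Samples were grouped and numbered by their titles. Per the study's methods and the submitters' processing notes, reads were aligned to GRCh37 with STAR 2.5.0b, and Cufflinks 2.2.1 and DESeq2 1.6.3 are named for abundance and comparison. FPKM values for each library, not pooled, were deposited by the authors. A second deposited table holds the authors' comparison, with a mean signal per gene (normalized count), log2 fold change, Wald score and p-value. Only its mean signal was used. Scaled to that mean, 100% of the FPKM values above 0 were whole reads within 0.1, which shows division by size factors from 0.829 to 1.67. These reads gave the depth. The floor of 3 reads was a set value and covers counting error only.

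limma 3.58.1 in R 4.3.3 (lmFit, eBayes with trend) was run without a replicate term, and its steps were tested on simulated data. In those data, changes slightly larger than any fitted for the 10 genes were not called at this limit. Fewer genes were changed in them than were called in the libraries. A gene that missed the limit may thus still have changed by such an amount. Ratios were compared in scipy 1.17.1. The members and lists were chosen with earlier results of these data known. Named genes are the 10 members, up to 4 called genes a list by fold change with 1 direction in all replicate pairs, ATF4, MYC, MYCN, MTHFD2L, FLI1 and the 5 genes most like PHGDH, of which 1 is not reported here. Alternatives were a pseudocount of 0.1, no filter, a filter at 1 FPKM, median-ratio scaling, quantile normalization, no trend, a replicate block, omission of each library in turn, an adjusted p under 0.05 and limma-voom. Equal FPKM totals and sample quality weights were chosen after seeing the data. Gene positions are from GENCODE v44 on GRCh37.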

Additional observations from a re-analysis of the deposited data

How the results depend on the processing

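Each group holds 3 libraries, and depth was at least 6980361 reads on genes. Of the 10 genes, 1 (MTHFD1) was called lower with quantile normalization and with equal FPKM totals, 3 (PHGDH, MTHFD1 and SHMT1) with sample quality weights and 2 at an adjusted p under 0.05, and 0 under each other alternative. Of the further lists, 7 genes were called lower, against 2 with no filter, 19 with median-ratio scaling, equal totals or limma-voom, 20 with quantile normalization, 17 with the replicate block, 37 with quality weights, 32 at an adjusted p under 0.05 and 0 to 19 when 1 library was left out (0 without any high library or low replicate 2). The 1 called higher became 4 with median-ratio scaling, quantile normalization or an adjusted p under 0.05, 3 with the block, 5 with equal totals, 18 with weights and 1 to 7 when 1 library was left out. Of all genes, 522 were called lower and 700 higher. The lower count was 297 with no filter, 813 with median-ratio scaling, 1000 with quantile normalization, 786 with the block, 819 with equal totals, 2257 with weights, 784 with limma-voom, 1537 at an adjusted p under 0.05 and 156 to 726 when 1 library was left out. The higher count was 456 with no filter, 992 with quantile normalization, 1224 with equal totals, 2488 with weights, 1530 at an adjusted p under 0.05 and 287 to 1452 when 1 library was left out. Equal totals moved the median log2 fold change of all genes from -0.05 to 0.05.

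PHGDH, PSAT1, PSPH, SHMT1 and MTHFD1 stayed below 0 under every alternative run. Median-ratio scaling, quantile normalization, equal totals and weights turned the log2 fold change of SHMT2 to 0.00072, 0.10, 0.054 and 0.20, of MTHFD1L to 0.016, 0.057, 0.067 and 0.39, and of ADSS to 0.034, 0.14, 0.086 and 0.44. Quantile normalization turned MTHFD2 to 0.054 and ATF4 to 0.051. Weights turned MTHFD2 to 0.40, SLC1A4 to 0.20, SLC1A5 to 0.028, ATF4 to 0.079, MYC to 0.36 and ASNS to 0.38. When 1 library was left out, SHMT2 lay between -0.29 and 0.16, MTHFD2 between -0.58 and 0.21, MTHFD1L between -0.35 and 0.29, ADSS between -0.33 and 0.40, MYC between -0.62 and 0.047, MTHFD2L between -0.022 and 0.53, ASNS between -0.79 and 0.088, CHAC1 between -0.032 and 1.36, and the SLC1A5 to SLC1A4 log2 difference between -0.049 and 0.16. The cause was not tested.

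Same-numbered libraries correlated in their deviations from the group means with r of 0.27, 0.089 and 0.12, and other pairs between -0.29 and 0.19. With 3 libraries a group, these values cannot decide whether equal numbers pair the libraries. The main fit did not pair them. With the replicate block 0 of the 10 genes were called and 4 had an adjusted p (limma) under 0.05, PHGDH (0.0397), PSAT1 (0.034), SHMT1 (0.0323) and MTHFD1 (0.0156). FLI1 stayed called under every alternative run.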
